A study of Mus musculus with 56 samples.

Results

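Liver levels of 9 genes of apolipoprotein secretion and of the angiopoietin-like family were followed in 56 mice: Apoa1, Apoa2, Apoa4, Apoa5, Apob, Apoc3, Mttp, Angptl4 and Angptl8. Their rows were found by symbol among the 21935 genes of the deposited count table, by a rule that uses no measured value, though the set was drawn up with earlier results of these data known. Each had 1 row in the table. All 9 were among the 14105 genes read at least 5 times in at least 3 mice, which were the genes tested.

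The liver sends triglyceride to other tissues in very low density lipoprotein. Each particle is built on 1 molecule of apolipoprotein B, the product of Apob, which the microsomal triglyceride transfer protein (Mttp) loads with lipid. Smaller apolipoproteins are exchangeable: apoA-I and apoA-II are the main proteins of high density lipoprotein (HDL), apoA-IV travels on chylomicrons and HDL, apoC-III slows triglyceride clearance and apoA-V promotes it. Angiopoietin-like 4 and angiopoietin-like 8 (Angptl4, Angptl8) inhibit lipoprotein lipase, the enzyme that releases fatty acids from circulating triglyceride, and are known for their response to fasting and feeding, respectively. In mice Apoa4 is made in the small intestine and, at a level that depends on the lipid content of the cell, in the liver.

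Livers of 8 male C57BL/6J mice from each of 7 larger study groups were sequenced. The mice were obtained as young animals and fed for 36 weeks before 8 weeks of daily subcutaneous dosing. Chow-fed mice received vehicle. The other 6 groups ate the AMLN diet, which is high in fat, fructose and cholesterol and gives diet-induced obesity with metabolic dysfunction-associated steatohepatitis (DIO-MASH). Only mice with fibrosis and moderate to severe steatosis in a liver biopsy entered them, allotted by that biopsy and body weight. These 6 groups received vehicle, zalfermin at 0.05 mg/kg (low dose) or 0.2 mg/kg (high dose), semaglutide at 0.003 mg/kg (low dose) or 0.12 mg/kg (high dose), or both drugs. Zalfermin is a long-acting analogue of the hormone FGF21, and semaglutide an agonist of the receptor for glucagon-like peptide-1. For the combination, the study's methods give the low dose of each drug (0.05 and 0.003 mg/kg) and the design text of the series names the high dose of each, a conflict that changes what every comparison with this group means. The low doses, which the paper also gives in its abstract and results, are used here. Comparisons of the combination with its parts hold only for these doses. RNA came from whole frozen liver at the end of dosing, so that fewer cells of a type and less RNA per cell cannot be told apart. A fast of some hours was stated for terminal blood, and the feeding state of the livers is not given in the sources used here.

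Of the 9 genes, 4 lie side by side on mouse chromosome 9, in a cluster 43.34 kb long (GRCm38, chr9:46228580-46271919, GENCODE M21). In order these are Apoa1, Apoc3, Apoa4 and Apoa5. Apoc3 is transcribed toward Apoa1 and the other 3 genes in the opposite direction, and the gaps between neighbours are 2.466, 5.059 and 25.173 kb. The other 5 genes lie apart, Apoa2 at chr1:171225054-171226379, Mttp at chr3:138089854-138144968, Angptl8 at chr9:21835510-21837347, Apob at chr12:7977648-8016835 and Angptl4 at chr17:33773750-33781830. The sequences just upstream of 3 of these genes are shown because neighbours in this cluster differed from DIO-MASH vehicle in opposite directions. They are from RefSeq (GRCm38.p6, plus strand, 5′ to 3′), and each ends at the last base before the first exon in GENCODE M21. Capitals mark matches to the motifs searched.

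Apoa1, chr9:46228380-46228579: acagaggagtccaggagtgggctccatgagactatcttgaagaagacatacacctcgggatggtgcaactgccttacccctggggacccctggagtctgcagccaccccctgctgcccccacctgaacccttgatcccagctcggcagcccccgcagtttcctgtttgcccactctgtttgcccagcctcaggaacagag
Apoa4, chr9:46240594-46240695: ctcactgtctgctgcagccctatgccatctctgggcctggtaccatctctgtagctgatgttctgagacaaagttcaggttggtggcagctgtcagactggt
Apoa5, chr9:46268383-46268632: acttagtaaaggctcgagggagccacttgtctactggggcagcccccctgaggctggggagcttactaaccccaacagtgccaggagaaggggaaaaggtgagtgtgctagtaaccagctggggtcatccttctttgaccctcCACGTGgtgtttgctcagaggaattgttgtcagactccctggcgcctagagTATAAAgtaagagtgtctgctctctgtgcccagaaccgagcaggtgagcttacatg

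RefSeq places the start 50 bases further downstream than GENCODE for Apoa1 and 148 bases further for Apoa4. The motifs were looked for on both strands of the 250 bases before the RefSeq start, in the 7 genes with a promoter entry (all but Apoc3 and Angptl4). Of 32817 promoters, TATAAA (the TATA box) was in 12.4%, CCAAT in 33.8%, AGGTCA (a nuclear receptor motif) in 14%, CAAAGTCCA (a site of HNF4) in 0.384%, TGTTTAC (a forkhead site) in 3.16%, CACGTG (an E-box) in 6.02%, TGACG (the core of a cAMP response element) in 17.7% and GTTAAT (part of a site of HNF1) in 6.44%. Apoa5 held TATAAA 56 bases before its start and CACGTG 107 bases before it. No match was found for Apoa1, Apoa4 or Angptl8 with these letters in this window. Apob held TATAAA at 60 bases, Mttp TGACG at 28 on the opposite strand, and Apoa2 held TATAAA at 212, CCAAT at 164 on the opposite strand, TGTTTAC at 77 and TGACG at 23. These are matches of letters and not shown binding sites.

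Total counts ranged from 5228187 to 20885786 per mouse, with a median of 12206788. The 9 genes together took between 2.83% and 3.81% of a library. Levels are given as CPM (counts scaled to a common library size) with the factors of edgeR's trimmed mean of M-values (TMM). Differences are log2 fold changes of edgeR's quasi-likelihood fit of all 56 mice with their standard error (SE), and adjusted p is Benjamini-Hochberg over the 14105 genes, with 0.05 as the threshold. A gene higher or lower at that threshold is called changed. The 8 hepatocyte markers checked against the label of liver (Alb and Ttr among them) were all read in every group.

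Some libraries and cell type markers have to be known before the results. Chow mouse 8 held reads of the small intestine: 10 intestinal markers other than Apoa4 summed to 2339 CPM, against 18.5 to 165 CPM in the other 55 mice. In those 55 mice nearly all of the sum was Fabp2 (18.1 to 165 CPM), so it does not grade their intestinal reads. Alpi, an intestinal phosphatase, stood at 1263 CPM in chow mouse 8, and the other mice did not pass 0.0847 CPM. This matters here because the intestine expresses Apoa4 and Mttp strongly. Low-dose semaglutide mouse 6 stood apart from its group in Apoa4 and Angptl8, and the series' design text states that 1 low-dose semaglutide sample was excluded at quality control without marking it in the table. Mouse 6 is not known to be the excluded sample. All 56 mice were used, and values without both chow mouse 8 and this mouse are given where leaving them out changed a call. Calls of Apoa4 or Angptl8 gained in this way are no independent support, since mouse 6 stood apart by these genes. The summed level of hepatocyte markers had a median of 170876 CPM in chow, 73762 CPM in DIO-MASH vehicle, 117729 CPM under the combination, 108338 CPM with high-dose zalfermin and 101490 CPM with high-dose semaglutide. In the same 5 groups the medians were 259, 1302, 529, 639 and 704 CPM for stellate cell markers, 90.2, 713, 342, 401 and 366 CPM for lipid-associated macrophage markers, 47.6, 382, 192, 207 and 178 CPM for cholangiocyte markers and 4165, 2217, 2137, 3327 and 2147 CPM for adipocyte markers. Of these 5 groups, vehicle was highest and chow lowest in the stellate cell, macrophage and cholangiocyte markers, and the reverse held for hepatocyte markers. These marker levels do not tell the number of cells from RNA per cell, and their part in the results was not tested. With total counts as library sizes in place of TMM, the median log2 fold change of all genes moved by -0.458 in chow, -0.221 under the combination, -0.188 under high-dose zalfermin and -0.125 under high-dose semaglutide, each against DIO-MASH vehicle. The share of higher among called genes then fell from 47.9% to 8.3%, from 48% to 9.89%, from 49.6% to 13.5% and from 58.9% to 19.9%. Directions below hold relative to the TMM scale.

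**Figure D1:**
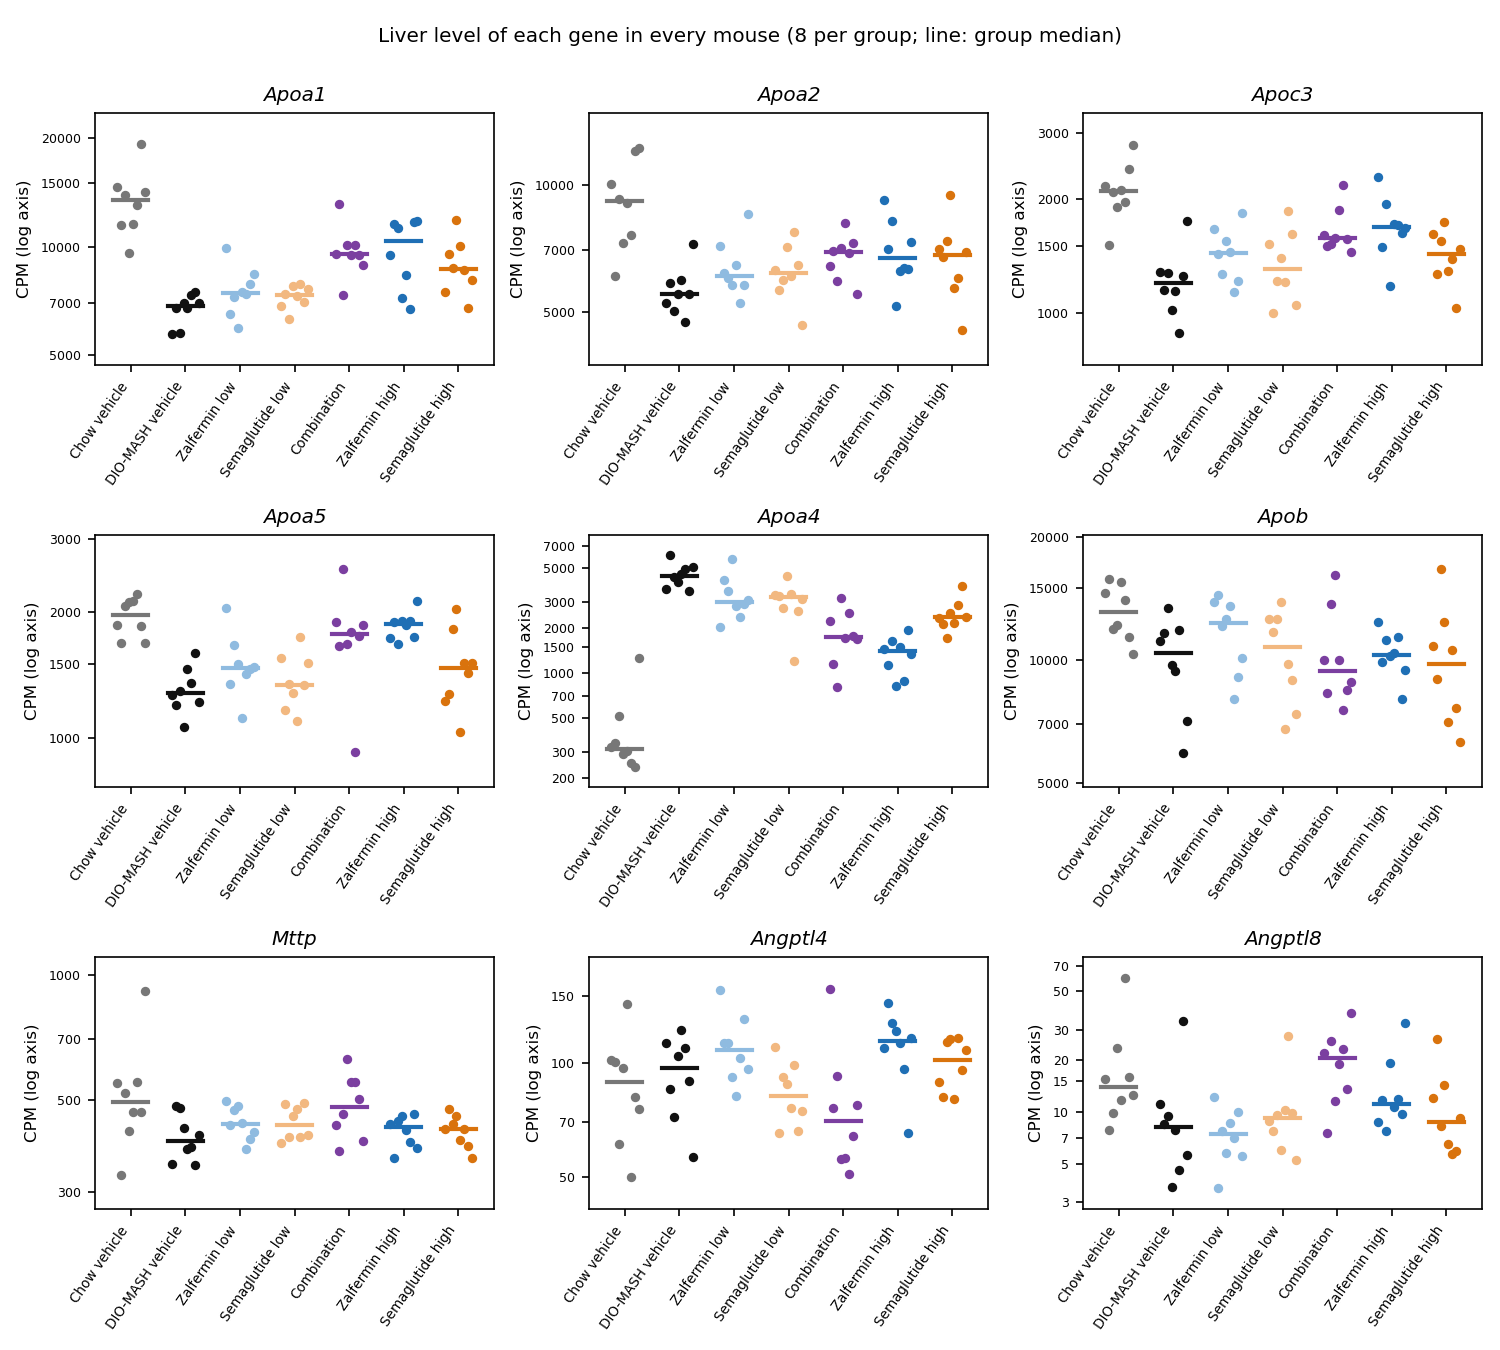
Level of each of the 9 genes in CPM (log axis) in every mouse, with the 7 groups along the horizontal axis, 8 points per group and a line at the group median. Apoa4 is lowest in chow (median 314 CPM) and highest in DIO-MASH vehicle (median 4468 CPM), and Apoa1 shows the opposite order (13522 and 6874 CPM).

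Chow and DIO-MASH vehicle livers were compared first, to show how the disease model itself moved these genes. The HDL and triglyceride-clearance apolipoproteins were higher in chow and Apoa4 was far lower. Of the 9 genes, 7 were called higher in chow and 1 lower, in a comparison in which 55.4% of all genes were called (26.5% higher and 28.9% lower). The median log2 fold change was 0.58 over the 9 genes and -0.01 over all genes tested.

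Apoa4, which encodes the chylomicron and HDL protein apoA-IV, gave the largest change of the 9. Its level was between 236 and 1254 CPM in chow (median 314) and between 3508 and 6150 CPM in DIO-MASH vehicle (median 4468). The groups did not overlap, which was the case for 16% of all genes. Apoa4 was 10.3-fold lower in chow (log2 fold change -3.37, SE 0.28, adjusted p = 5.98e-14, edgeR). The highest chow value was that of mouse 8, the library with intestinal reads, and the other 7 chow mice lay between 236 and 522 CPM. Without this mouse and low-dose semaglutide mouse 6 the log2 fold change was -3.81 (adjusted p = 6.00e-18, edgeR). The intestinal reads thus moved with a higher Apoa4 in chow, and the difference was as large without them.

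Apoa1, the gene of the main HDL protein, ranged from 9606 to 19264 CPM in chow (median 13522) and from 5750 to 7495 CPM in DIO-MASH vehicle (median 6874), with no overlap. It was 2.0-fold higher in chow (log2 fold change 1.0, SE 0.12, adjusted p = 1.33e-09). Apoa2, the second HDL protein, lay between 6086 and 12207 CPM in chow (median 9143) and between 4736 and 7238 CPM in vehicle (median 5522), so that the ranges met. Its log2 fold change was 0.70 (SE 0.13, adjusted p = 6.11e-06). The mice carry sample numbers that fall into runs separated by gaps, whose origin is not given. Both HDL genes were higher in chow within each of the 3 runs that hold both groups, at 1.06, 1.11 and 0.61 for Apoa1 and 0.50, 0.75 and 0.64 for Apoa2 on the log2 scale.

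The triglyceride regulators of the cluster moved the same way. Apoc3 ranged from 1512 to 2776 CPM in chow (median 2103) and from 888 to 1747 CPM in DIO-MASH vehicle (median 1203), and its log2 fold change was 0.79 (SE 0.13, adjusted p = 9.34e-07). Apoa5 lay between 1687 and 2216 CPM in chow (median 1970) and between 1061 and 1598 CPM in vehicle (median 1282), without overlap, at a log2 fold change of 0.58 (SE 0.12, adjusted p = 8.48e-05). Apoc3 and Apoa5 act in opposite directions on triglyceride clearance, and both were higher in chow. With total counts as library sizes Apoa5 kept its direction at 0.13 and was no longer called (adjusted p = 0.377).

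Apob and Mttp, the pair that starts particle assembly, differed less. Apob lay between 10392 and 15828 CPM in chow (median 13141) and between 5939 and 13420 CPM in DIO-MASH vehicle (median 10443), at a log2 fold change of 0.40 (SE 0.17, adjusted p = 0.0422). Mttp lay between 331 and 911 CPM in chow (median 494) and between 349 and 484 CPM in vehicle (median 398), at 0.37 (SE 0.11, adjusted p = 0.00437). The ranges of chow and vehicle overlapped for both genes, and with total counts as library sizes both turned to slightly lower in chow (-0.05 for Apob and -0.09 for Mttp). The Apob call held in 9 of 16 fits that left out 1 mouse of these groups (log2 fold change 0.33 to 0.48) and was lost without chow mouse 1, 2, 5 or 6 or DIO-MASH vehicle mouse 5, 7 or 8. The highest Mttp value belonged to chow mouse 8, and leaving out that mouse alone ended the Mttp call (log2 fold change 0.21, adjusted p = 0.0526, and 0.0532 without both mice that stood apart). The other 7 chow mice lay between 331 and 551 CPM.

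The angiopoietin-like inhibitors of lipoprotein lipase differed little or unevenly by diet. Angptl4 lay between 50.2 and 144 CPM in chow (median 89.2) and between 56.7 and 122 CPM in DIO-MASH vehicle (median 97.1), at a log2 fold change of -0.08 (95% confidence interval -0.44 to 0.28, adjusted p = 0.725). With total counts as library sizes it was called lower in chow, at -0.55 (adjusted p = 0.00808). Angptl8 lay between 7.83 and 59.9 CPM in chow (median 14) and between 3.65 and 33.6 CPM in vehicle (median 8.18), at 0.89 (SE 0.39, adjusted p = 0.0499). Single mice set this value. The call held in 6 of 16 fits that left out 1 mouse (lost without chow mouse 4, 6 or 7 or any DIO-MASH vehicle mouse but mouse 7), and the log2 fold change ranged from 0.38 to 1.44 in them, the lowest without chow mouse 6 (adjusted p = 0.408) and the highest without DIO-MASH vehicle mouse 7. Angptl8 lies within Dock6 on the opposite strand and shares 0 exon bases with it. Dock6 itself ranged from 11.7 to 28.8 CPM over all groups and was lower in chow (log2 fold change -0.40, adjusted p = 0.0188).

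**Figure D2:**
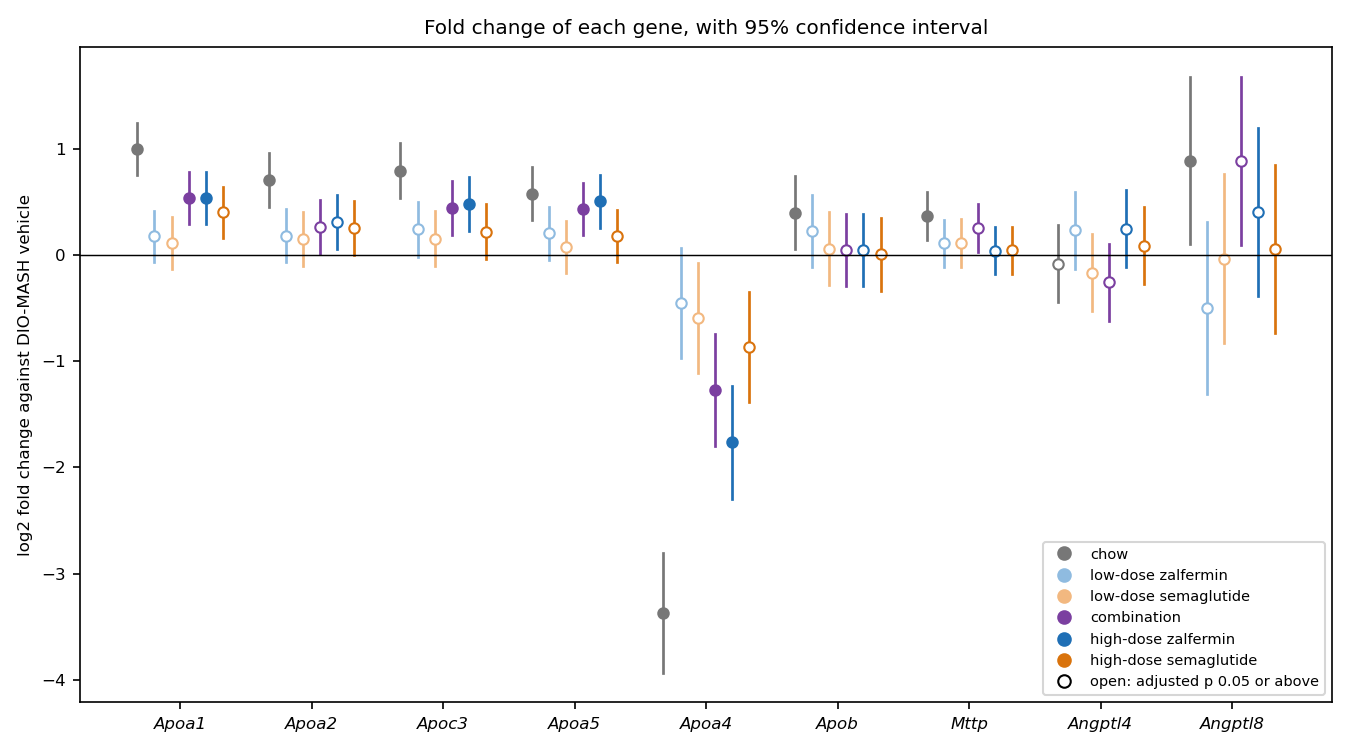
Log2 fold change against DIO-MASH vehicle on the TMM scale (vertical axis) of the 9 genes (horizontal axis) in chow and the 5 treated groups. Bars are 95% confidence intervals, filled points passed the threshold of 0.05 and open points did not. Apoa4 is the only gene below 0 in all 6 groups, and no point of a low dose or of high-dose semaglutide is filled. With total counts as library sizes, Apob in all groups but low-dose zalfermin and Mttp in chow, both zalfermin doses and high-dose semaglutide lie below 0, as do Apoa5 with low-dose semaglutide and Angptl4 and Angptl8 with high-dose semaglutide.

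The combination and high-dose zalfermin moved the cluster genes part of the way toward chow. Each called Apoa1, Apoc3 and Apoa5 higher and Apoa4 lower than DIO-MASH vehicle, so that 4 of the 9 genes were called in each. The background was 20.9% of all genes with the combination (10% higher and 10.9% lower) and 17.2% with high-dose zalfermin (8.54% higher and 8.68% lower). The 2 comparisons share the DIO-MASH vehicle mice. The median log2 fold change of the 9 genes was 0.27 with the combination and 0.31 with high-dose zalfermin, against -0.03 and -0.02 over all genes.

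Apoa4 ranged from 807 to 3169 CPM with the combination (median 1734) and from 823 to 1930 CPM with high-dose zalfermin (median 1399). Every mouse of both groups lay below every DIO-MASH vehicle mouse, a separation seen in 3.98% of all genes for the combination and in 4.8% for high-dose zalfermin. Apoa4 fell by 1.27 on the log2 scale with the combination (SE 0.26, 2.41-fold lower, adjusted p = 0.000314) and by 1.76 with high-dose zalfermin (SE 0.26, 3.39-fold lower, adjusted p = 2.20e-06). Both groups stayed above chow, by 2.10 (adjusted p = 4.07e-08) and 1.60 (adjusted p = 4.27e-06) on the log2 scale. Within the runs of sample numbers the log2 differences from vehicle were -1.57, -1.06 and -1.26 for the combination and -1.77, -2.07 and -1.37 for high-dose zalfermin.

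Apoa1 ranged from 7366 to 13158 CPM with the combination (median 9543) and from 6710 to 11793 CPM with high-dose zalfermin (median 10397). It rose by the same amount in both, by 0.54 on the log2 scale (SE 0.12 each), with adjusted p = 0.000893 for the combination and 0.00102 for high-dose zalfermin. The combination mice overlapped the vehicle range by 1 mouse. High-dose zalfermin mice were more scattered, and the within-run differences were 0.78, 0.19 and 0.66. In both groups Apoa1 remained below chow (log2 difference -0.46 in each, adjusted p = 0.00252 and 0.002). With total counts as library sizes neither of these differences from chow was called (-0.21 and -0.18, adjusted p = 0.138 and 0.176, edgeR).

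Apoa5 lay between 1680 and 2134 CPM with high-dose zalfermin (median 1877), entirely above the vehicle mice, at a log2 fold change of 0.51 (SE 0.12, adjusted p = 0.00235). With the combination it lay between 923 and 2534 CPM (median 1776), at 0.43 (SE 0.12, adjusted p = 0.00885). Mouse 6 of the combination, at 923 CPM, was below every vehicle mouse, and the other 7 were above every vehicle mouse. The within-run differences of the combination were uneven, at 0.63, 0.03 and 0.30. Against chow the log2 difference of Apoa5 was -0.15 for the combination (95% confidence interval -0.39 to 0.10) and -0.07 for high-dose zalfermin (-0.32 to 0.17).

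Apoc3 lay between 1446 and 2174 CPM with the combination (median 1576) and between 1178 and 2286 CPM with high-dose zalfermin (median 1690). It rose by 0.44 (SE 0.13, adjusted p = 0.0101) and by 0.48 (SE 0.13, adjusted p = 0.00587) on the log2 scale. The 2 genes with opposite roles in triglyceride clearance, Apoa5 and Apoc3, were therefore higher together under both treatments. With total counts as library sizes, where rises shrink by the shift given above, Apoa1 and Apoa4 were still called in both comparisons, Apoc3 was called with high-dose zalfermin only, and Apoa5 in neither (adjusted p = 0.189 with the combination and 0.0548 with high-dose zalfermin).

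**Figure D3:**
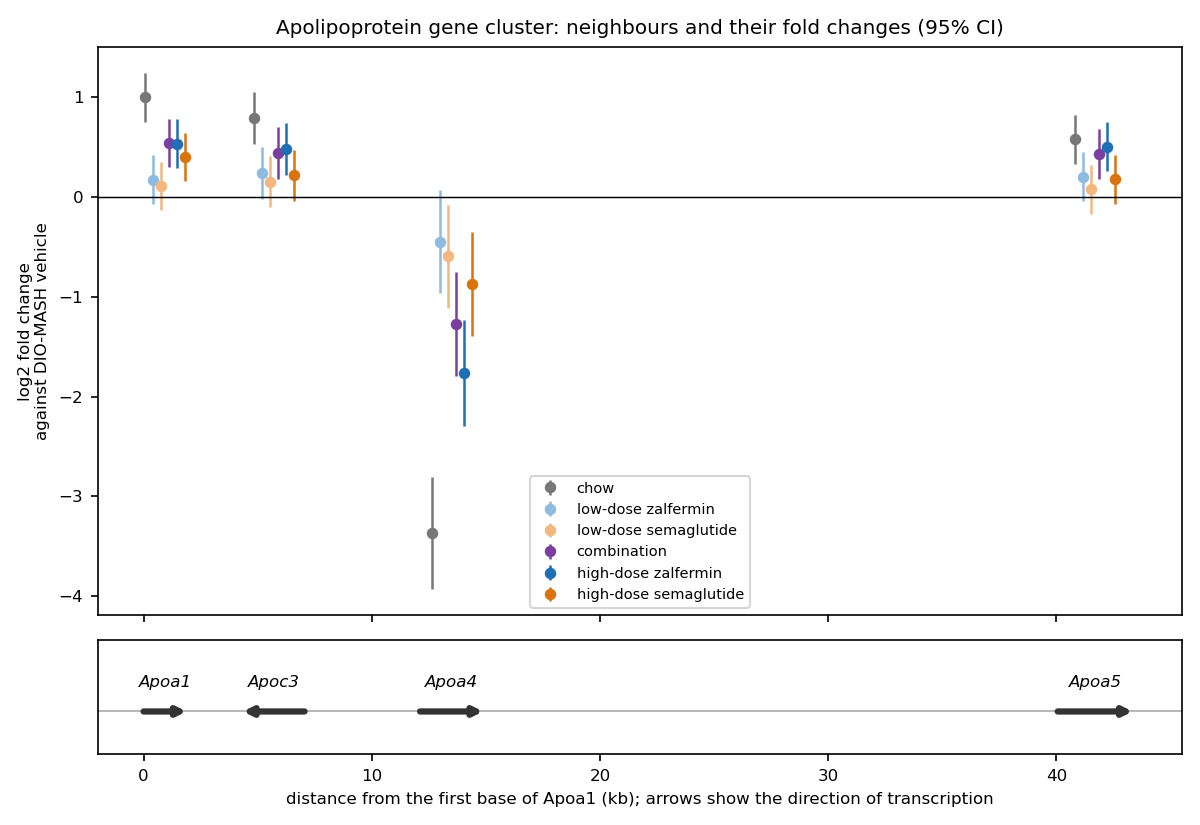
Log2 fold changes against DIO-MASH vehicle on the TMM scale with 95% confidence intervals (upper panel) of the 4 cluster genes, placed by their distance in kb from the first base of Apoa1 (the groups set side by side over each gene), with arrows for the direction of transcription (lower panel). Apoa4 lies below 0 between neighbours that lie above 0 in every group, except that Apoa5 with low-dose semaglutide turns to -0.03 with total counts as library sizes.

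The remaining members did not pass the threshold with these treatments, though some did in other fits. Apoa2, at medians of 6937 CPM with the combination and 6708 CPM with high-dose zalfermin, had log2 fold changes of 0.27 (adjusted p = 0.125) and 0.31 (adjusted p = 0.0800). It was called in both with the runs of sample numbers as a covariate (0.32, adjusted p = 0.0406, and 0.37, adjusted p = 0.0193) and with only the groups compared (adjusted p = 0.0477 and 0.0458). Mttp, at medians of 481 and 429 CPM, had 0.26 (adjusted p = 0.0936) and 0.04 (95% confidence interval -0.18 to 0.27), the latter turning to -0.14 with total counts as library sizes. Its combination value was called with the runs as a covariate (0.30, adjusted p = 0.0349), without the 2 mice that stood apart (adjusted p = 0.0351) and without combination mouse 2 (adjusted p = 0.0368). Apob, the backbone of the particle, had 0.05 in both, and -0.18 and -0.14 with total counts as library sizes. Its 95% confidence interval on the TMM scale was -0.29 to 0.39 in both. With this spread between mice, the interval leaves room for a change of Apob within these bounds. Angptl4 had -0.26 with the combination (adjusted p = 0.321) and 0.25 with high-dose zalfermin (adjusted p = 0.375), at medians of 70.2 and 115 CPM, and with total counts as library sizes the first was called (-0.47, adjusted p = 0.0457). It was also called without combination mouse 1, the highest of its group (log2 fold change -0.47, adjusted p = 0.0455). Angptl8 ranged from 7.48 to 37.5 CPM with the combination (median 20.5) and from 7.71 to 32.6 CPM with high-dose zalfermin (median 11.1), at 0.89 (adjusted p = 0.0984) and 0.40 (adjusted p = 0.534). Leaving out DIO-MASH vehicle mouse 7, the highest vehicle mouse in Angptl8, raised the combination value to 1.44 and brought it past the threshold (adjusted p = 0.00569).

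High-dose semaglutide called none of the 9 genes with edgeR, in a comparison that called 2.43% of all genes. At an unadjusted p under 0.05 there were 3 members and 2390 of the 14105 genes, and DESeq2 called 2 members and 516 genes. Apoa4 lay between 1705 and 3815 CPM (median 2353) and had a log2 fold change of -0.87 (SE 0.26, adjusted p = 0.0555), and Apoa1 lay between 6776 and 11860 CPM (median 8696) and had 0.40 (SE 0.12, adjusted p = 0.0571). These were the 2 genes past the threshold in DESeq2's Wald test (adjusted p = 0.0273 and 0.0337) and in edgeR without the 2 mice that stood apart (adjusted p = 0.00697 and 0.0455). Within the runs of sample numbers Apoa4 differed from vehicle by -1.14, -0.79 and -0.47, whereas Apoa1 differed by 0.57, 0.52 and -0.00. Leaving out 1 mouse also brought Apoa1 (high-dose semaglutide mouse 1, 7 or 8) or Apoa4 (mouse 7) past the threshold, so that the calls of this group depend on the test and on single mice. Apoa5 (0.18), Apoc3 (0.22), Apoa2 (0.26), Apob (0.01), Mttp (0.05), Angptl4 (0.09) and Angptl8 (0.06) had adjusted p of 0.289 or above, and the last 4 turned to below 0 with total counts as library sizes.

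The low doses alone called none of the 9 genes with edgeR or DESeq2. Low-dose zalfermin called 0.468% of all genes, and 0 members and 1593 genes had an unadjusted p under 0.05. Low-dose semaglutide called 0% of all genes with edgeR (1222 genes at an unadjusted p under 0.05, 32 genes with DESeq2), and 1 member, Apoa4, had an unadjusted p under 0.05 (0.0255, adjusted p = 0.514). Apoa4 lay between 2029 and 5773 CPM with low-dose zalfermin (median 2986) and between 1212 and 4405 CPM with low-dose semaglutide (median 3199), and both medians were below the lowest vehicle mouse. The log2 fold changes were -0.45 (95% confidence interval -0.96 to 0.07) and -0.59 (-1.11 to -0.08). The lowest low-dose semaglutide value was that of mouse 6, and the next was 2607 CPM. Apoa1 had log2 fold changes of 0.18 and 0.11, at medians of 7440 and 7365 CPM.

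Direct comparisons between treated groups addressed whether the combination moved these genes beyond its parts. Against low-dose zalfermin the combination called 2 of the 9 genes, where 6.62% of all genes were called. Apoa4 was lower (log2 fold change -0.82, SE 0.26, adjusted p = 0.0418) and Angptl8, the insulin- and feeding-responsive family member, was 2.61-fold higher (log2 fold change 1.39, SE 0.40, adjusted p = 0.0254). The Apoa4 call held in 6 of 16 fits that left out 1 mouse (lost without low-dose zalfermin mouse 2, 3, 4, 7 or 8 or combination mouse 2, 3, 5, 7 or 8) and the Angptl8 call in 14 of 16, being lost without low-dose zalfermin mouse 2 or combination mouse 8 (highest adjusted p = 0.0635). The number of members called ranged from 0 to 3 over these fits. Angptl8 lay between 3.61 and 12.2 CPM with low-dose zalfermin (median 7.39), so that the ranges overlapped between 7.48 and 12.2 CPM.

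Against low-dose semaglutide the combination called only Apoa1, by 0.43 (SE 0.12, adjusted p = 0.0292), where 4.21% of all genes were called. Low-dose semaglutide Apoa1 lay between 6307 and 7895 CPM, and the call was lost without low-dose semaglutide mouse 1 or 3 or combination mouse 2. It was also lost with total counts as library sizes (log2 fold change 0.30, adjusted p = 0.0746, edgeR). Without low-dose semaglutide mouse 6 and chow mouse 8, 4 genes were called, namely Apoa1 (adjusted p = 0.0186), Apoa4 (log2 fold change -0.80, adjusted p = 0.00871), Apoa5 (0.41, adjusted p = 0.0299) and Angptl8 (1.28, adjusted p = 0.0312). The count thus differs by whether these mice are used. Mouse 6 stood apart through its low Apoa4 and high Angptl8, so the calls of these genes without it follow from that choice and are no added support. The test of more than additive change, the combination minus both low doses plus vehicle on the log2 scale, called 0 of the 9 genes with edgeR and with DESeq2 (0.0142% of all genes with edgeR). At an unadjusted p under 0.05 there were 952 genes and 1 member, Angptl8, at 1.42 (SE 0.57, unadjusted p = 0.0149, adjusted p = 0.611). For Apoa4 the value was -0.23 (95% confidence interval -0.96 to 0.50) and for Apoa1 0.25 (-0.09 to 0.59). These intervals leave room for departures from additivity within their bounds.

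Between the combination and either high dose, edgeR and DESeq2 called 0 of the 9 genes. The background was 0.503% of all genes against high-dose zalfermin and 1.89% against high-dose semaglutide, and 1 and 2 members (Angptl4, and Apoa5 with Angptl8) had an unadjusted p under 0.05, as did 1544 and 2028 of all genes. For Apoa4 the log2 differences were 0.49 (95% confidence interval -0.02 to 1.01) against high-dose zalfermin and -0.40 (-0.92 to 0.11) against high-dose semaglutide. For Apoa1 they were 0.00 (-0.24 to 0.25) and 0.14 (-0.11 to 0.38). The intervals leave room for moderate differences in Apoa4. Angptl4 against high-dose zalfermin stood at -0.50 (unadjusted p = 0.00749, adjusted p = 0.217), and 1 combination mouse at 157 CPM lay far above the other 7.

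Between the 2 high doses, edgeR called 0 of the 9 genes, where 0.447% of all genes were called and 3 members and 1361 genes had an unadjusted p under 0.05. Apoa4 had a log2 difference of -0.90 between high-dose zalfermin and high-dose semaglutide (SE 0.26, adjusted p = 0.105) and was called by edgeR without the 2 mice that stood apart (adjusted p = 0.0125). DESeq2 called 1 member and 143 genes. Between doses of zalfermin, 1.84% of all genes and 1 member were called. That member was Apoa4, which was 2.49-fold lower at the high dose (log2 fold change -1.31, SE 0.26, adjusted p = 0.00353). The highest high-dose mouse stood at 1930 CPM and the lowest low-dose mouse at 2029 CPM. How many of all genes separate the 2 doses in this way was not counted. The call held in all 16 fits that left out 1 mouse. Between doses of semaglutide edgeR and DESeq2 called 0 of the 9 genes and 0% of all genes, with 549 genes and 1 member (Apoa1, log2 difference 0.29, adjusted p = 0.999) at an unadjusted p under 0.05.

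**Figure D4:**
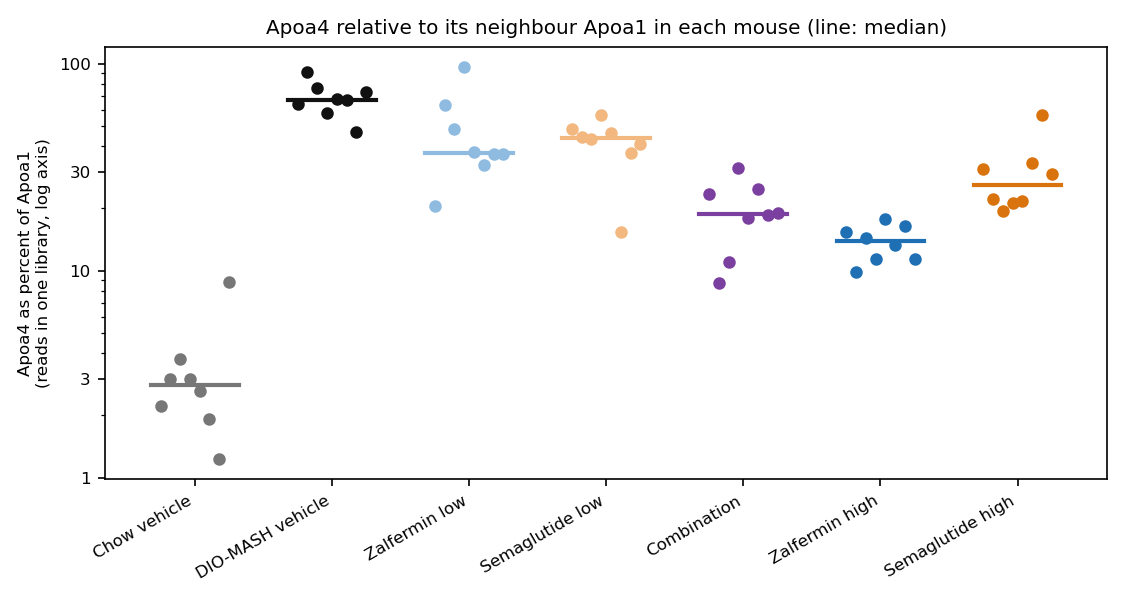
Apoa4 CPM as a percent of Apoa1 CPM in the same library (log axis) for each mouse in the 7 groups, with a line at the group median. The median is 67.1% in DIO-MASH vehicle, 13.9% with high-dose zalfermin and 2.80% in chow.

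Because Apoa4 and its neighbour Apoa1 were measured in the same libraries, their ratio does not depend on how libraries are scaled. The ratio joins the differences of both genes and does not show how far either moved alone. Apoa4 reads came to a median of 67.1% of Apoa1 reads in DIO-MASH vehicle (46.8% to 90.8%) and 2.80% in chow (1.23% to 8.80%). The medians of the low doses lay between vehicle and the other treatments, at 37% for zalfermin and 43.7% for semaglutide. The combination stood at 18.8% (8.75% to 31.2%), high-dose zalfermin at 13.9% (9.88% to 17.8%) and high-dose semaglutide at 25.8% (19.4% to 56.3%). Vehicle mice thus lay above all combination and high-dose zalfermin mice and overlapped high-dose semaglutide. By contrast Apoc3 kept to medians between 15.0% and 18.6% of Apoa1 and Apoa5 to medians between 14.8% and 19.9%. The ratios are of reads, and a difference in gene length is not removed from them.

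Treated groups were also compared with chow, to show what remained of the difference made by the diet. The combination called 4 of the 9 genes, high-dose zalfermin 5 and high-dose semaglutide 6, where 32.4%, 37.2% and 39.9% of all genes were called. Apoa4 remained higher than chow in each, by 2.10, 1.60 and 2.5 on the log2 scale, and Apoa1 lower (-0.46, -0.46 and -0.60). Apoa2 was also lower (-0.44, -0.39 and -0.45), as was Apoc3 (-0.35, -0.31 and -0.57). With the runs of sample numbers as a covariate the Apoa2 call of high-dose zalfermin was lost (-0.27, adjusted p = 0.0733). The Apoc3 calls of the combination (adjusted p = 0.129) and of high-dose zalfermin (adjusted p = 0.197) were lost as well. Losses with the balance of long and short genes as a covariate are given below. Apoa5 was called below chow with high-dose semaglutide only (log2 difference -0.40, adjusted p = 0.00791), and the direct comparisons of the treated groups in Apoa5 did not pass the threshold. Mttp was called lower with high-dose zalfermin (-0.33) and high-dose semaglutide (-0.32), and both calls were lost without the 2 mice that stood apart (adjusted p = 0.157 and 0.159) and without chow mouse 8 alone. The Apoc3 calls of the combination (adjusted p = 0.0729) and of high-dose zalfermin (adjusted p = 0.114) were lost without the same 2 mice, and held in 11 and 5 of 16 fits that left out 1 mouse. With total counts as library sizes, 1, 2 and 4 genes were called, and Mttp with high-dose semaglutide turned to 0.00. Of the calls given here, Apoa4 alone was then kept with the combination and with high-dose zalfermin. Apoa1 was lost in both (-0.21 and -0.18, adjusted p = 0.138 and 0.176, edgeR). With high-dose semaglutide Apoa2, Apoa5 and Mttp were lost. The counts of 2 and 4 thus each include a gene not called in the main fit. Apob with high-dose semaglutide (-0.39, adjusted p = 0.0601) was called without the 2 mice that stood apart (-0.44, adjusted p = 0.0426).

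**Figure D5:**
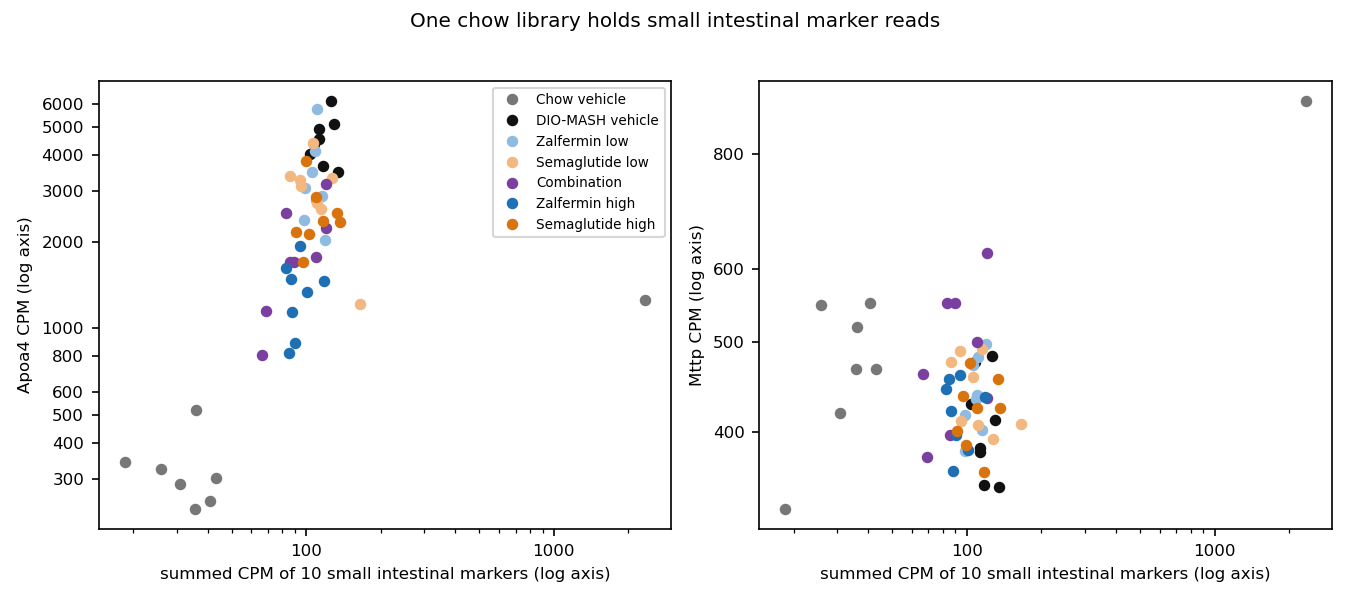
Apoa4 (left) and Mttp (right) in CPM against the summed CPM of 10 small intestinal markers other than Apoa4, for all 56 mice on log axes, coloured by group. Chow mouse 8 lies alone at 2339 CPM of markers, and its Apoa4 (1254 CPM) and Mttp (911 CPM) are the highest of the chow mice. In the other 55 mice nearly all of the marker sum is Fabp2.

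Per kilobase of exon, the order of levels in chow was Apoa2 (median 17026 CPM per kb), Apoa1 (10940), Apoc3 (2074), Apob (943), Apoa5 (781), Apoa4 (173), Mttp (79.7), Angptl4 (25.2) and Angptl8 (16.2). In DIO-MASH vehicle Apoa4, with 2462 CPM per kb, came after Apoa2 (10282) and Apoa1 (5561) and ahead of Apoc3 (1187), Apob (749) and Apoa5 (508). In vehicle each of the first 4 genes lay apart from its neighbour above, and the ranges of Apoc3 with Apob, Apob with Apoa5 and Angptl4 with Angptl8 overlapped. In chow, neighbours overlapped for Apoa2 with Apoa1, for Apob with Apoa5, for Angptl4 with Angptl8 and, through chow mouse 8 alone, for Apoa5 with Apoa4 and Apoa4 with Mttp. Exon length is 13.934 kb for Apob and 0.537 kb for Apoa2, and levels were also set against the balance of long and short genes in a library. Within groups, an index of the level of long genes (over 8 kb) against short genes (under 1.5 kb) correlated over the 56 mice at r = -0.75 with Apoa2, -0.74 with Apoc3, -0.52 with Apoa1 and 0.39 with Apob. The index averaged -0.18 in chow and 0.03 in DIO-MASH vehicle. With it as a covariate Apoa2 was also called higher with the combination (log2 fold change 0.26, adjusted p = 0.0249) and with high-dose zalfermin (0.28, adjusted p = 0.0191). Calls against chow were lost with the index (edgeR). Apoa2 was lost with the combination (adjusted p = 0.065) and with high-dose zalfermin (adjusted p = 0.0806). Apoc3 was lost with the combination (log2 difference -0.158) and with high-dose zalfermin (-0.138). Mttp was lost with high-dose zalfermin (adjusted p = 0.0729) and high-dose semaglutide (adjusted p = 0.074). Angptl8 in chow against DIO-MASH vehicle was lost too (adjusted p = 0.0607).

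Pairs of members were compared over the 56 mice after removing group means, for 6 pairs. Apoa4 and Apoa5 were inversely related (r = -0.39, permutation p = 0.0038, adjusted p = 0.0230), with Spearman's rho at -0.27 (permutation p = 0.0414, adjusted p = 0.124). Without the 2 mice farthest from the median of Apoa4, r was -0.34, and within the 3 larger runs of sample numbers it was -0.49, -0.35 and -0.44. Without TMM factors it was -0.27 and no longer passed (permutation adjusted p = 0.267). The other 5 pairs did not pass: Apoa1 with Apoc3 had r = 0.26 (rho 0.19), Apoa1 with Apoa4 0.03 (rho 0.03), Apob with Mttp 0.15 (rho 0.23), Angptl4 with Angptl8 -0.01 (rho 0.07) and Apoa4 with Angptl4 -0.25 (rho -0.28), with permutation adjusted p of 0.134 or above for r. For Apob and Mttp, partners in assembly, r turned to -0.000997 without TMM factors.

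The genes whose level followed each member most closely over all 56 mice, group differences included, were found by Spearman's rho among 9311 genes of 5 CPM or more, as a description. For Apoa4 these were Lgals1, which encodes galectin-1 (0.92), Cntnap1 (0.92) and Ephb2 (0.92). For Apoa1 they were Pemt, which makes phosphatidylcholine (0.87), Rbp4, the retinol carrier (0.87), and Ccs (0.86). Apoa2 was nearest to Atp5h (0.91), Sod1 (0.91) and Ndufv3 (0.90), Apoc3 to C8g (0.92), Aes (0.90) and Atp5h (0.89), and Apoa5 to Sirt3 (0.90), Hamp (0.85) and Kcnn2 (0.85). Apob was nearest to Usp9x (0.89), Vps13b (0.86) and Vps13c (0.82). Apoa1, Apoa2, Apoc3 and Apob also correlated with the index of long against short genes, as given above. The part of that index in these companions was not tested. The assembly factor and the lipase inhibitors had looser companions, with Nomo1 (0.75), Prkar2a (0.70) and Tspan31 (0.67) for Mttp, Pdp2 (0.70), Rgs16 (0.70) and Dnajc28 (0.69) for Angptl4, and Mtfp1 (0.77), Atf4 (0.76) and Hs6st1 (0.72) for Angptl8.

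Wider lists of lipoprotein genes were counted in the same comparisons with DIO-MASH vehicle. For every list below, the share called among all genes was 55.4% in chow (26.5% higher and 28.9% lower). It was 20.9% with the combination (10% and 10.9%), 17.2% with high-dose zalfermin (8.54% and 8.68%) and 2.43% with high-dose semaglutide. The low doses called 0.468% (zalfermin) and 0% (semaglutide). Counts near these shares show no change particular to a list. Of 34 genes of particle assembly and export (Apob and Mttp among them), 17 were higher and 4 lower in chow, 6 and 3 with the combination, 5 and 3 with high-dose zalfermin, and 0 under high-dose semaglutide (edgeR). The median log2 fold change of the list was 0.28, 0.06, 0.05 and 0.08 in turn, against -0.01, -0.03, -0.02 and -0.01 over all genes. Cidec, a lipid droplet protein, was lower than in vehicle in chow (log2 fold change -4.86, adjusted p = 1.52e-11), with the combination (-2.69, adjusted p = 7.95e-06) and with high-dose zalfermin (-2.14, adjusted p = 0.000212). Tm6sf2, which is needed to lipidate apoB particles, was higher by 1.03 in chow, 1.12 with the combination (adjusted p = 1.57e-06) and 0.78 with high-dose zalfermin, while Sort1, a sorting receptor that binds apoB, fell by 0.86 with the combination (adjusted p = 0.00101) and fell by 0.82 with high-dose zalfermin. Ces3b, a carboxylesterase, was higher by 2.01 in chow, 0.75 with the combination and 1.04 with high-dose zalfermin. Plin2, a coat protein of lipid droplets, was lower in chow (-1.04), with the combination (-0.67) and with high-dose zalfermin (-0.98, adjusted p = 4.53e-06). Tm6sf1 was lower in chow (-2.35).

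Of 20 other apolipoproteins tested, 12 were higher and 1 lower in chow, 6 and 1 with the combination, 7 and 0 with high-dose zalfermin, and 1 and 0 under high-dose semaglutide. Their median log2 fold changes were 0.66, 0.26, 0.37 and 0.20. Apom, an HDL apolipoprotein that carries sphingosine-1-phosphate, was called in all 4, at 1.76, 1.04, 0.91 and 0.50 (adjusted p between 1.10e-16 and 0.0152). Apoh was higher by 1.18 in chow, 0.76 with the combination and 0.66 with high-dose zalfermin, and Apon by 0.72, 0.65 and 0.55. Apol9b was higher by 0.96 in chow and 1.06 with high-dose zalfermin. The acute phase proteins Saa1 (1.95) and Saa2 (2.45) were higher in chow.

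Of 11 genes of HDL maturation, 6 were higher and 2 lower in chow, 5 and 1 with each of the combination and high-dose zalfermin, and 3 and 0 under high-dose semaglutide, at median log2 fold changes of 0.45, 0.35, 0.29 and 0.09. Lcat, which esterifies HDL cholesterol, was higher by 1.14, 0.90, 0.64 and 0.43, and Pon1, an esterase carried on HDL, by 1.13, 0.81, 0.81 and 0.44. Lipc, the hepatic lipase, was higher by 0.91 in chow, 0.72 with the combination, 0.84 with high-dose zalfermin, 0.40 under high-dose semaglutide and 0.46 with low-dose zalfermin (adjusted p = 0.0409). Abcg1, a cholesterol exporter, was lower in chow (-2.16, adjusted p = 1.19e-11), with the combination (-0.63) and with high-dose zalfermin (-0.60).

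In the angiopoietin-like family of 7 genes, which holds both lipase inhibitors described above, 2 were higher and 1 lower in chow, 1 and 0 with each of the combination and high-dose zalfermin, and 0 under high-dose semaglutide. The family's median log2 fold changes were 0.16, 0.12, 0.25 and 0.09. Angptl2 was the gene lower in chow (-1.81, adjusted p = 5.28e-09).

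Among 12 genes of intravascular lipolysis, 4 were higher and 4 lower in chow, 2 and 0 with the combination, 1 and 3 with high-dose zalfermin, and 1 and 0 under high-dose semaglutide (medians -0.17, -0.16, -0.11 and 0.07). Lpl, the lipase that Angptl4 and Angptl8 act on, was lower in chow (-2.77, adjusted p = 9.79e-12), as was Cd36, a fatty acid transporter (-2.40). With high-dose zalfermin Cd36 fell by 0.56 (adjusted p = 0.00389) and Fgf21, the hormone that zalfermin mimics, by 1.10 (adjusted p = 0.0478) from a mean of 3.43 CPM in vehicle, and Fgf21 was lower in chow (-1.81). Sel1l was higher by 0.36 in chow and 0.25 with the combination. Lpl is also a marker in 2 of the cell type lists given above. The summed level of the macrophage list was lower in chow and that of the adipocyte list was higher. The part of either in the Lpl difference was not tested.

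Of 14 genes of remnant uptake, 4 were higher and 5 lower in chow, 4 and 0 with the combination, 6 and 0 with high-dose zalfermin, and 0 under high-dose semaglutide (medians 0.11, 0.10, 0.12 and 0.07). Sdc1, a heparan sulphate proteoglycan that binds remnants, rose by 0.51 with the combination and by 0.51 with high-dose zalfermin. Vldlr was lower in chow (-0.74) but higher by 0.55 with the combination and 0.61 with high-dose zalfermin, and Hspg2 was lower in chow (-0.81).

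Of 35 transcription factors known to act on apolipoprotein genes, 18 were higher and 3 lower in chow, 9 and 1 with each of the combination and high-dose zalfermin, and 1 and 0 under high-dose semaglutide (medians 0.37, 0.24, 0.23 and 0.17). Hnf4a, a central regulator of hepatocyte genes including Apoa1 and Apoc3, was higher by 1.19 in chow (adjusted p = 3.91e-10), 0.80 with the combination (adjusted p = 1.87e-05), 0.64 with high-dose zalfermin (adjusted p = 0.000559) and 0.56 with high-dose semaglutide (adjusted p = 0.0184). Foxa3 (1.40) and Onecut1 (1.42) were higher in chow, and Foxa3 rose by 0.56 with high-dose zalfermin. Ppargc1a was higher by 0.39 in chow, 0.78 with the combination and 0.79 with high-dose zalfermin, Ppard rose by 1.01 with the combination, and Mlxipl rose by 0.69 with the combination and 0.65 with high-dose zalfermin. Pparg was lower in chow (-0.73), with the combination (-0.64) and with high-dose zalfermin (-0.72).

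The list of PPARA targets, of which Angptl4 is a known one though not placed in it, moved in both directions. Of 27 genes, 2 were higher and 9 lower in chow, 6 and 5 with the combination, 2 and 7 with high-dose zalfermin, and 1 and 0 under high-dose semaglutide (medians -0.13, -0.04, -0.07 and 0.06). The fatty acid hydroxylases Cyp4a14 and Cyp4a10 rose by 2.45 and 1.39 with the combination, Cyp4a14 by 1.12 with high-dose zalfermin, and Acot3 by 1.3 with each of the combination and high-dose zalfermin and by 1.45 under high-dose semaglutide. Pdk4 was lower in chow (-2.37) and with high-dose zalfermin (-1.11), and Vnn1 in chow (-2.21), with the combination (-0.63) and with high-dose zalfermin (-0.80). Of 19 lipogenic and insulin-responsive genes, the class in which Angptl8 is usually counted, 2 were higher and 12 lower in chow, 4 and 0 with the combination, 3 and 0 with high-dose zalfermin, and 1 and 0 under high-dose semaglutide (medians -0.69, 0.40, 0.26 and 0.13). Pnpla3 was lower in chow (-2.47) and higher by 1.2 with the combination (adjusted p = 0.0437), where Elovl6 (0.79, and -0.95 in chow) and Mlxipl (0.69) were also higher, the latter also with high-dose zalfermin as given above. Pck1, of gluconeogenesis, was higher by 1.37 in chow and 1.04 with high-dose zalfermin, Igfbp1 was lower in chow (-1.37), and Dgat2 was higher by 0.66 in chow, 0.51 with high-dose zalfermin, 0.33 with the combination and 0.38 under high-dose semaglutide. Low-dose semaglutide called 0 genes of these 9 lists with edgeR, and low-dose zalfermin called Lipc alone.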

How the data were processed

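The authors deposited raw read counts per gene, with no normalization, for 21935 genes in 56 livers. Per the study's methods, stranded mRNA libraries were sequenced on a NextSeq instrument and aligned with STAR to GRCm38. The submitters' processing notes list Trim Galore 0.6.4 and Salmon 1.9.0 without their roles. The counting program and its use of strand are not given in the sources used here, so reads of antisense genes that overlap Apoa4, Apoa5 and Mttp cannot be told apart from theirs. Trmt10a shares 457 exon bases with Mttp and stayed near 3 CPM (medians 2.93 to 3.64).

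Groups came from the labels. Differences were tested in R 4.3.3 with the quasi-likelihood F test of edgeR 4.0.16 (TMM factors, all 7 groups in a single model, no covariates), over the 14105 genes read at least 5 times in at least 3 mice. CPM uses normalized library sizes. Correlations used log2 CPM with a prior count of 2 and 100000 permutations. The steps were tested on simulated counts. No 2 mice of a group agreed within sampling noise (lowest chi-square per degree of freedom 8.01 over 196 pairs).

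The runs of sample numbers are stretches of the label numbers separated by gaps over 100 (22, 15, 16 and 3 mice). They are not a stated batch. The members and lists were chosen with earlier results of these data known. All members are named, and for each list the up to 3 called genes with the largest change and a mean of 1 CPM or more. Some genes that this rule names are not reported here. Alternatives were DESeq2 1.42.0, its size factors, total counts, no filter beyond 1 read, a stricter filter (at least 10 reads in at least 8 mice), number runs as a covariate, only the groups compared, and each mouse left out. Chosen after seeing the data were fits without chow mouse 8 and low-dose semaglutide mouse 6, with the long-gene index as a covariate, and DESeq2 without the latter mouse. Figures were drawn with matplotlib 3.10.9.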

Additional observations from a re-analysis of the deposited data

Results flagged for a closer look

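In 3 of 63 sets of 8 mice (9 genes in 7 groups), 1 mouse lay so far from the others that its gap to the nearest mouse, on the log2 CPM scale, was above Dixon's 95% critical share of the group's range. Chance gives this in about 1 of 20 sets, which is about the number seen. Low-dose semaglutide mouse 6 was the lowest of its group in Apoa4, at 1212 CPM against 2607 CPM in the next mouse (gap 0.594 of the log2 range and 0.437 of the CPM range). The same mouse was the highest in Angptl8, at 27.7 CPM against 10.2 CPM (gap 0.602 of the log2 range and 0.779 of the CPM range). Combination mouse 6 was the lowest in Apoa5, at 923 CPM against 1665 CPM (gap 0.584 of the log2 range and 0.461 of the CPM range). On the CPM scale, which was added after seeing the data, 9 sets passed the limit, and of the 3 only the Angptl8 value was among them. The other 8 were the highest mice of their sets, among them chow mouse 8 in Apoa4 (gap 0.719 of the CPM range and 0.525 of the log2 range) and in Mttp (0.620 and 0.496).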

How the results depend on the processing

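Of 35 called differences, 33 kept their direction and their side of the threshold with DESeq2, 33 with its size factors, 17 with total counts as library sizes (3 reversed), 31 without a filter, 35 with the stricter filter, 29 with number runs as a covariate, 28 with only the groups compared, 30 without the 2 mice that stood apart, 34 in DESeq2 without low-dose semaglutide mouse 6 and 28 with the long-gene index. The last 3 were chosen after seeing the data. The cause of the changes was not tested.

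Counts of members called moved as follows. Against DIO-MASH vehicle the combination (4) gave between 3 (total counts) and 6 (number runs), and high-dose zalfermin (4) between 3 (total counts) and 5 (number runs, only the groups compared and the index). For chow against DIO-MASH vehicle (8) there were 5 with total counts and 5 with only the groups compared. For high-dose semaglutide (0) there were 2 with DESeq2, 1 each with total counts, the stricter filter, number runs and only the groups compared, 2 without the 2 mice, 1 in DESeq2 without mouse 6 and 2 with the index. For the combination there were, against low-dose zalfermin (2), 1 without a filter, 4 with number runs and 1 with only the groups compared, against low-dose semaglutide (1), 4 without the 2 mice and 4 in DESeq2 without mouse 6, and against chow (4), 1 with total counts. For high-dose zalfermin there was, against high-dose semaglutide (0), 1 with each of DESeq2, total counts, only the groups compared and without the 2 mice, and against chow (5), 2 with total counts and 3 with each of number runs, without the 2 mice and the index. Leaving out 1 mouse gave 0 to 2 for high-dose semaglutide, 0 to 3 and 0 to 4 for the combination against low-dose zalfermin and low-dose semaglutide, 0 to 1 against high-dose zalfermin, 1 to 2 for high- against low-dose zalfermin and 3 to 5 for high-dose zalfermin against chow. Calls among all genes moved too. With total counts, against DIO-MASH vehicle, 773 genes were higher and 8537 lower in chow, and 444 and 4044 with the combination. They were 496 and 3183 with high-dose zalfermin and 70 and 282 with high-dose semaglutide. In the main fit the numbers were 3739 and 4072, 1417 and 1536, 1205 and 1224, and 202 and 141 in turn. The share of all genes is not given for most other settings, so the member counts alone show no change particular to the members.

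Without TMM factors r was -0.27 for Apoa4 and Apoa5, -0.000997 for Apob and Mttp and 0.00672 for Angptl4 and Angptl8, the last 2 reversed.

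Log2 fold changes against DIO-MASH vehicle that reversed with total counts were, for Apob, -0.0540 in chow, -0.0386 with low-dose and -0.145 with high-dose semaglutide, -0.141 with high-dose zalfermin and -0.176 with the combination, and for Mttp, -0.0884 in chow, -0.00794 with low-dose zalfermin, -0.145 with high-dose zalfermin and -0.0846 under high-dose semaglutide (0.00381 against chow). Apoa5 with low-dose semaglutide (-0.0275) and Angptl4 (-0.0451) and Angptl8 (-0.124) with high-dose semaglutide reversed too. With number runs as a covariate Apob was -0.0779 with low-dose and -0.138 with high-dose semaglutide, -0.0298 with high-dose zalfermin and -0.0797 with the combination, Angptl4 -0.00309 with high-dose semaglutide and Angptl8 0.0190 with low-dose semaglutide. With the index Angptl4 in chow was 0.0224 and Angptl8 with low-dose semaglutide 0.0160, and with the stricter filter Apob with high-dose semaglutide was -0.00566. Leaving out 1 mouse turned the sign of 8 values that had not been called. Their ranges were, for Apob, -0.0197 to 0.133 (low-dose semaglutide), -0.0698 to 0.130 (combination), -0.0277 to 0.125 (high-dose zalfermin) and -0.135 to 0.0890 (high-dose semaglutide), for Angptl8, -0.637 to 0.0436 (low-dose zalfermin), -0.392 to 0.507 (low-dose semaglutide) and -0.263 to 0.603 (high-dose semaglutide), and for Angptl4, -0.213 to 0.00811 (chow). Without low-dose semaglutide mouse 6 alone Angptl8 stood at -0.392, and without DIO-MASH vehicle mouse 7 at 0.507. Among the reversed values, the chow values of Apob and Mttp and the Mttp value against chow had been called.

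No paired analysis was possible because the labels give no replicate numbers shared between groups. DESeq2 gave no adjusted p for 4 values that edgeR had not called. The spread between mice limits Angptl8 most (SE 0.39 in chow against DIO-MASH vehicle, and 0.12 for Apoa1).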
